A study of Mus musculus with 12 samples.

Results

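The genes of zinc and iron handling were followed across cultured stem and precursor cells of the mouse subventricular zone, the germinal layer beside the lateral ventricles. The set held 36 of the 55401 identifiers in the gene count table. It was defined by gene symbol as all protein-coding Slc30a genes (10 zinc exporter family members, ZnT), all protein-coding Slc39a genes (14 zinc importer family members, ZIP), 3 metallothioneins with their zinc-sensing activator Mtf1, and 8 genes of iron uptake, storage, export and sensing. No measured value entered that definition, but the set was proposed with earlier results of these libraries known, so its counts are descriptions. Of the 36, 31 passed the filter on low counts and were tested. Slc30a2, Slc30a3, Slc30a8, Slc39a4 and Slc39a5 did not, each with at most 37 reads summed over the 4 libraries of any group.

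Cells came from outbred CD1 mice, with no genetic change named. The postnatal oligodendrocyte precursor cell group (postnatal OPC) was derived from neurospheres of pups at days 0 to 2 after birth and grown as a monolayer for 2 days with FGF at 10 ng/mL, PDGF-AA at 10 ng/mL and 2% B27. The adult neural stem cell group (adult NSC) was grown as floating neurospheres from mice of 2 months, and the postnatal neural stem cell group (postnatal NSC) as neurospheres from pups at days 0 to 2. The medium of both neurosphere groups held EGF (20 ng/mL), heparin (2 ug/mL), the same 10 ng/mL of FGF and 2% B27, and culture lasted 6 to 7 days. Each group had 4 libraries, from 4 independent litters per the submitters. Cell type, culture form and medium change together between postnatal OPC and either NSC group, and age changes as well between postnatal OPC and adult NSC, so these cannot be told apart. In RNA from whole cultures, fewer cells of a type and less RNA per cell cannot be told apart either.

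Zinc enters the cytosol through ZIP proteins and leaves it, to the outside or into vesicles, through ZnT proteins, while metallothioneins bind the zinc in between. When free zinc rises, the zinc-finger factor MTF1 binds metal response elements and switches on the metallothionein genes Mt1 and Mt2 and the exporter gene Slc30a1. Iron reaches most cells as transferrin taken up by the transferrin receptor, is stored in ferritin and leaves through ferroportin. Iron regulatory proteins bind hairpins called iron-responsive elements, which blocks translation of ferritin when iron is low and stabilises the transferrin receptor mRNA. Oligodendrocyte lineage cells hold much of the brain's iron, and oligodendrocytes are a main brain source of transferrin.

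The postnatal OPC libraries held totals of 17226501 to 23651396 counts, the adult NSC libraries 16756231 to 20064043 and the postnatal NSC libraries, the deepest, 38928989 to 54801726. A pair of libraries stood apart from the others of their group. The summed level of 12 immediate early genes was 13479 CPM in postnatal NSC library 3, where CPM is the count per gene scaled to a common library size. Its range was 341 to 381 CPM over the postnatal OPC libraries, 653 to 739 CPM over the adult NSC libraries and 5070 to 13479 CPM over the postnatal NSC libraries. The summed level of 12 genes of the G1/S transition was 484 CPM in postnatal OPC library 2 and 633 CPM in postnatal NSC library 3, with group ranges of 484 to 2187 CPM in postnatal OPC, 1907 to 2157 CPM in adult NSC and 633 to 1770 CPM in postnatal NSC. All 8 OPC markers were tested, and their sum was 5126 to 10712 CPM in postnatal OPC, 2182 to 2488 CPM in adult NSC and 2991 to 3577 CPM in postnatal NSC, and thus highest in the libraries labelled OPC. The 10712 CPM was in library 2, with Gpr17 at 2776 and Pdgfra at 2496 CPM. Olig1, Sox10 and Gpr17 overlapped between postnatal OPC and postnatal NSC, while Pdgfra, Cspg4, Olig2, Lhfpl3 and Cacng4 did not. The sum of 8 neural stem markers was 5827 to 9151 CPM in postnatal OPC, 9747 to 10397 CPM in adult NSC and 7709 to 8926 CPM in postnatal NSC. All CPM values use the library size multiplied by its TMM factor (an edgeR correction for RNA composition), and ± after a log2 fold change is its standard error.

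The promoters of the MTF1 target genes Mt1, Mt2 and Slc30a1 carry the metal response element core, and their windows are shown. The window of Slc30a10 stands beside them because that gene had the largest change below, and it is not named here as an MTF1 target. All 4 are RefSeq windows of the GRCm38.p6 reference, 300 bases long with 250 before and 50 after the annotated start, and not the sequence of the CD1 animals. Capitals mark every match to TGCACNC or TGCGCNC on either strand (GTGCGCA, for instance, is a reverse-strand match).
Mt1, chr8:94178839-94179138, plus strand: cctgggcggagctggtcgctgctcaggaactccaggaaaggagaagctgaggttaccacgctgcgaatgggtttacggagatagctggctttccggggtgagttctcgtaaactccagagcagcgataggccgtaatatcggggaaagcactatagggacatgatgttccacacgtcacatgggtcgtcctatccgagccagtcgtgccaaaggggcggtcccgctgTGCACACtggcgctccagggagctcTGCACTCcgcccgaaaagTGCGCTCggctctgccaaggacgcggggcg
Mt2, chr8:94172368-94172667, plus strand: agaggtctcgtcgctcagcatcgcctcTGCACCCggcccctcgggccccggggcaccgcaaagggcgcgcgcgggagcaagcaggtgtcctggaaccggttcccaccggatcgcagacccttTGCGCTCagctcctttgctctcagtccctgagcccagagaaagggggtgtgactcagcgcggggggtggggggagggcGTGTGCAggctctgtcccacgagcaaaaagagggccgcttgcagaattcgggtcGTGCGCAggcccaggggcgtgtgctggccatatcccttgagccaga
Slc30a1, chr1:191906531-191906830, plus strand: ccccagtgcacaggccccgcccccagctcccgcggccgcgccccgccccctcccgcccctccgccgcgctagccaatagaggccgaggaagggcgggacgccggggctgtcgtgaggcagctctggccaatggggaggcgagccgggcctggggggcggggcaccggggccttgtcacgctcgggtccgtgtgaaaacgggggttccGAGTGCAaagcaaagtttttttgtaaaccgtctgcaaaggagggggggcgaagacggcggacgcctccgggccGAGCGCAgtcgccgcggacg
Slc30a10, chr1:185454598-185454897, plus strand: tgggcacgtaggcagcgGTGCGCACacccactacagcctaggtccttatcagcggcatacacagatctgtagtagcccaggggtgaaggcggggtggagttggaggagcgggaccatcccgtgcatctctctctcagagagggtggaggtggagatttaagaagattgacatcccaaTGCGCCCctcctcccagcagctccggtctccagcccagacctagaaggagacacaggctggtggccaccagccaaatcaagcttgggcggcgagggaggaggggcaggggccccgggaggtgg
The windows held 4 matches in Mt2, 3 in Mt1, 2 in Slc30a1 and 3 in Slc30a10, where a pair of matches on opposite strands overlaps in 1 run of capitals. Of 32851 mouse promoter windows of the same length, 25.7% held at least 1 match, 7.11% at least 2, 1.97% at least 3 and 0.517% at least 4. The window of Slc30a4 also held 3 matches, and the window of Slc30a2 and 1 of the windows of Tfrc held 2 each. A window was given for 29 of the 36 members, and 16 of these had a match in at least 1 window. That count is per gene and some members had several windows, so it cannot be set against the shares of single windows above. A match is a run of letters, and binding was not measured.

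The iron genes carry the other sequence element, the iron-responsive hairpin, shown for the 4 members in which a search of GENCODE M21 untranslated regions found one. Each is 27 bases of the reference mRNA, read as DNA, with the 6-base loop in capitals between the arms of the stem.
Fth1, 5′ untranslated region: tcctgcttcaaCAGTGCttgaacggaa
Ftl1, 5′ untranslated region: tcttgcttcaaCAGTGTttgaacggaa
Slc40a1, 5′ untranslated region: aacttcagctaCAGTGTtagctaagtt
Tfrc, 3′ untranslated region, the most 5′ hairpin: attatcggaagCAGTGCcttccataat
Tfrc, 3′ untranslated region, next: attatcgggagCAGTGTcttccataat
Tfrc, 3′ untranslated region, next: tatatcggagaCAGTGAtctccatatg
Tfrc, 3′ untranslated region, the most 3′ hairpin: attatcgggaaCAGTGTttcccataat
By this search the ferritin and ferroportin genes had 1 hairpin each near the start of the mRNA, and the transferrin receptor had 4 after the coding sequence. The search required an unpaired C, 5 pairs in the upper stem and at least 4 in the lower stem. The loop had to read CAGTG followed by a base other than G. Elements of another form would be missed, so these counts are minimum numbers and a member without a match may still carry an element. By the same search 6 of 20200 genes (0.0297%) held such a hairpin in a 5′ untranslated region and 7 of 20884 (0.0335%) in a 3′ untranslated region. These elements act largely on translation and mRNA stability, and translation was not measured.

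Per kilobase of exon the ferritin light chain was the most abundant member in every group. The length joined all annotated exons of a gene and can exceed that of the mRNA, so levels of different genes compare only roughly. In postnatal NSC, for instance, Mt2 was above Mt1 per kilobase (112 against 90.2) but below it in CPM (65.8 against 112). Ftl1 averaged 515 CPM per kilobase in postnatal OPC, 469 in adult NSC and 705 in postnatal NSC. Fth1, the ferritin heavy chain, averaged 73.1, 97.7 and 115 CPM per kilobase in postnatal OPC, adult NSC and postnatal NSC. Metallothionein levels were of the same order, and Mt2 spanned the widest range of the 3, with 41.3 CPM per kilobase in postnatal OPC, 27.9 in adult NSC and 112 in postnatal NSC. Among the transporters Slc39a1, a zinc importer of the cell surface, was the highest, at 41.5, 53.4 and 62.5 CPM per kilobase in the same order. The ferroportin gene Slc40a1, the only known cellular iron exporter, was near the bottom of the tested members, at 0.0494 CPM per kilobase in postnatal OPC, 0.00905 in adult NSC and 0.0668 in postnatal NSC.

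**Figure D1:**
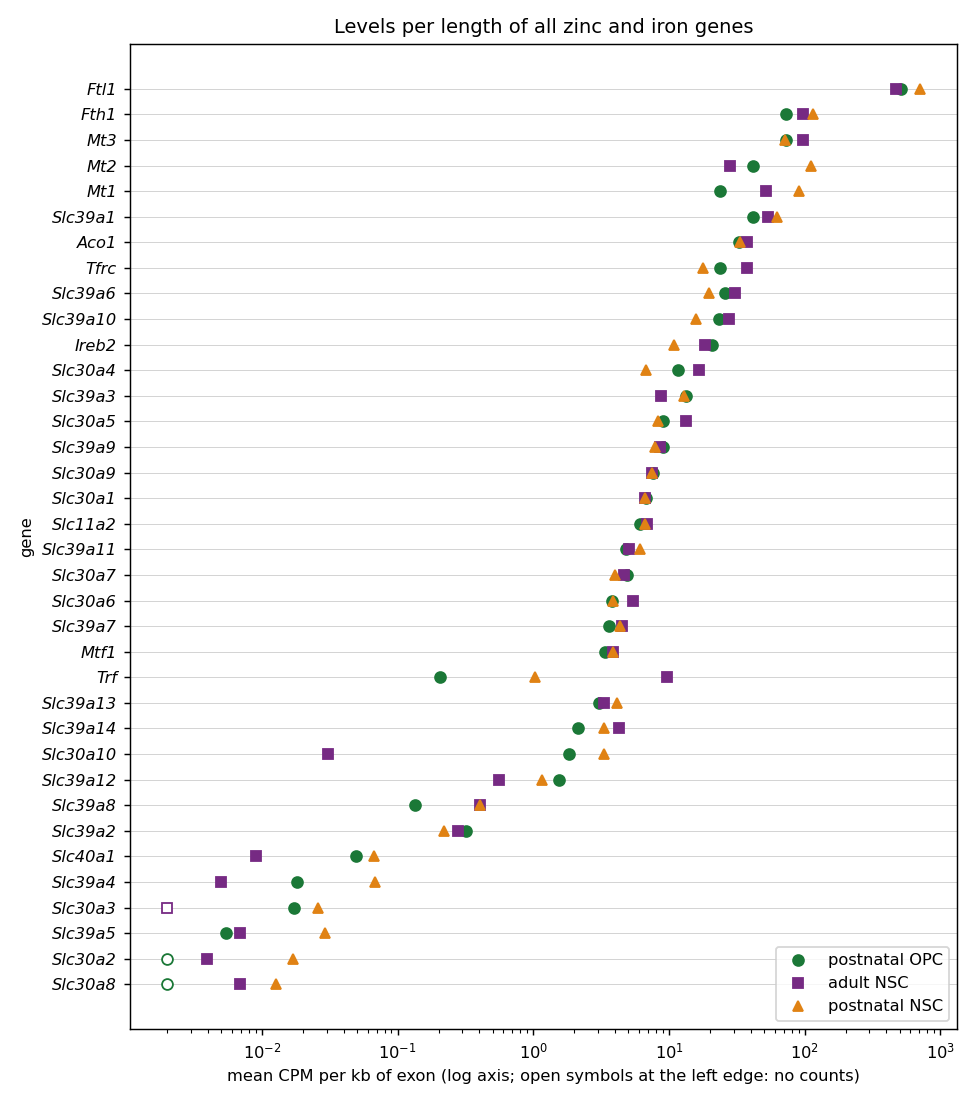
Mean level of each of the 36 members in CPM per kilobase of exon, on a log axis, with 1 point per group and open points at the left edge where no read was counted. Ftl1 stands highest in all 3 groups, and Slc30a10 and Trf show the widest separation between groups.

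Postnatal OPC against postnatal NSC, 6 of the 31 tested members were higher, 10 were lower and 15 were not called at an adjusted p of 0.05 by edgeR's quasi-likelihood test. The called share of 51.6% stood beside 45.1% of all 16135 tested genes (22.4% higher and 22.7% lower). Adult NSC against postnatal NSC, 10 members were higher, 8 lower and 13 not called, a share of 58.1% beside 53.1% of all genes (25.2% higher and 27.9% lower). Postnatal OPC against adult NSC, 4 members were higher, 10 lower and 17 not called, a share of 45.2% beside 51.0% of all genes (26.3% higher and 24.7% lower). The called shares of the members were thus close to those of all genes. Their median log2 fold changes were −0.03, 0.04 and −0.19 in these comparisons, beside −0.01, −0.03 and 0.01 for all genes. The first 2 comparisons share the postnatal NSC libraries, and each pair of the 3 shares a group, so a gene's values in them are not independent.

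**Figure D2:**
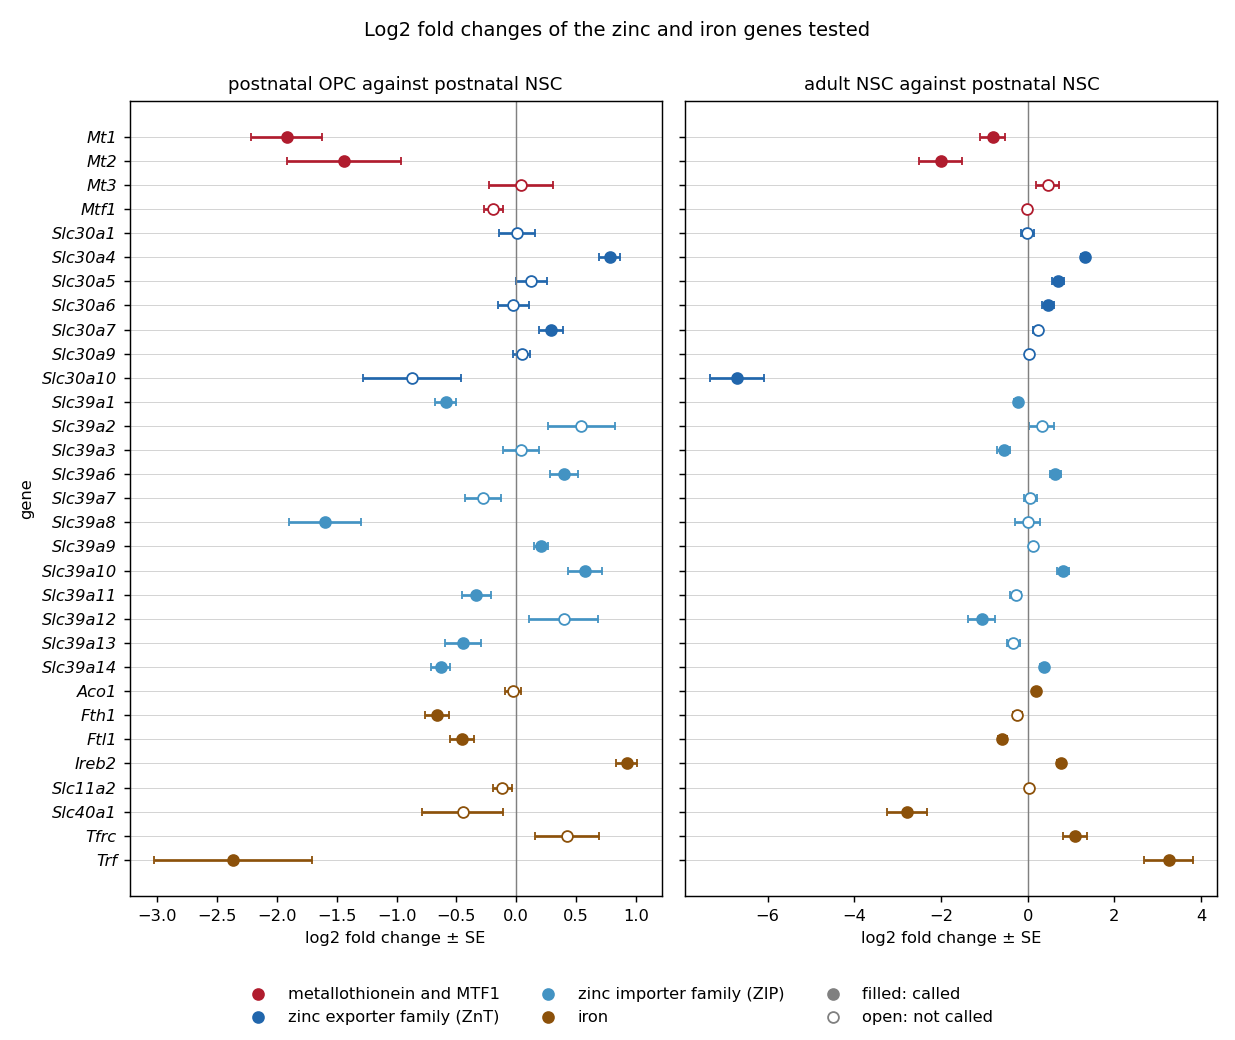
Log2 fold change of each tested member with its standard error in the comparisons of postnatal OPC and adult NSC against postnatal NSC, coloured by role and filled where the adjusted p was under 0.05. The panels have different horizontal scales; Slc30a10 reaches −6.71 and Trf 3.25 in adult NSC, while most members lie within 1 unit of 0.

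The metallothionein genes Mt1 and Mt2, which encode small cysteine-rich zinc-binding proteins, were lower in both postnatal OPC and adult NSC than in postnatal NSC, and the brain-enriched Mt3 was not called. Mt1 (ENSMUSG00000031765.8, GRCm38 chr8:94179082-94180327), Mt2 (ENSMUSG00000031762.7, chr8:94172664-94173568) and Mt3 (ENSMUSG00000031760.9, chr8:94152607-94154146) lie on the plus strand within 27.7 kb. Mt1 had 43.7, 24.8, 30.2 and 20.0 CPM in postnatal OPC libraries 1 to 4, 57.3, 60.0, 74.9 and 65.4 CPM in adult NSC, and 98.2, 95.6, 189 and 66.4 CPM in postnatal NSC. Every postnatal OPC library was below every library of both NSC groups, whereas adult NSC and postnatal NSC overlapped. The means were 29.7 ± 10.2, 64.4 ± 7.76 and 112 ± 53.3 CPM (SD, n = 4 each). Mt1 was 3.78-fold lower in postnatal OPC than in postnatal NSC (log2 fold change −1.92 ± 0.30 SE, adjusted p = 0.000343). It was also lower in postnatal OPC than in adult NSC (−1.12 ± 0.30, adjusted p = 0.00791). The adult NSC difference from postnatal NSC was smaller (−0.80 ± 0.29, adjusted p = 0.036) and was lost without postnatal NSC library 3 (−0.43, adjusted p = 0.132). That call was also lost without adult NSC library 1, 2 or 4 (adjusted p = 0.087, 0.0819 and 0.0692), and its adjusted p ran over 0.00836 to 0.132 across all settings.

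Mt2, whose promoter window held the most metal response element matches of the 4 shown, had 41.5, 20.6, 20.9 and 14.1 CPM in postnatal OPC, 14.2, 15.5, 19.7 and 16.2 CPM in adult NSC, and 42.5, 56.8, 142 and 21.7 CPM in postnatal NSC. All adult NSC libraries were below all postnatal NSC libraries, and the postnatal OPC range ran into both. Mt2 was lower in adult NSC than in postnatal NSC (−2.01 ± 0.49, adjusted p = 0.00477), and this call held in every setting, with an adjusted p of at most 0.0166. Without postnatal NSC library 3, however, the log2 fold change was −1.30, the smallest of those with 1 library left out. In postnatal OPC it was −1.44 ± 0.48 relative to postnatal NSC (adjusted p = 0.027). Without postnatal NSC library 3 that value was −0.74 with an adjusted p of 0.104, and without postnatal OPC library 2, 3 or 4 the adjusted p was 0.0519, 0.0646 or 0.0758; over all settings it ran over 0.00491 to 0.153. Postnatal OPC did not pass the test against adult NSC (0.57 ± 0.48, adjusted p = 0.349). An annotated gene on the opposite strand, Gm45774, overlaps exons of Mt2, and whether counting used the strand is not given in the sources used here.

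Mt3 had 122, 52.1, 79.5 and 58.6 CPM in postnatal OPC, 97.9, 97.7, 111 and 109.6 CPM in adult NSC, and 103, 52.5, 93.7 and 53.9 CPM in postnatal NSC. The ranges of postnatal OPC and postnatal NSC overlapped over most of their length, and the adult NSC libraries lay close together in the upper part of the postnatal OPC range. None of its comparisons passed the test, with log2 fold changes of 0.04 ± 0.27 for postnatal OPC against postnatal NSC (adjusted p = 0.915), 0.46 ± 0.27 for adult NSC against postnatal NSC (0.172) and −0.42 ± 0.27 for postnatal OPC against adult NSC (0.222). Without postnatal OPC library 1 the last of these passed (−0.71, adjusted p = 0.0357). Mtf1, the activator itself, averaged 30.3 ± 1.63 CPM in postnatal OPC, 34.5 ± 1.30 in adult NSC and 34.6 ± 1.85 in postnatal NSC. Its log2 fold change was −0.19 ± 0.08 in postnatal OPC (adjusted p = 0.0574) and −0.01 ± 0.08 in adult NSC (0.958), both relative to postnatal NSC. Postnatal NSC library 3, with the highest Mt1, Mt2, Slc30a1 and Slc30a10, was also the library with the highest immediate early gene sum, whose part in the result was not tested.

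**Figure D3:**
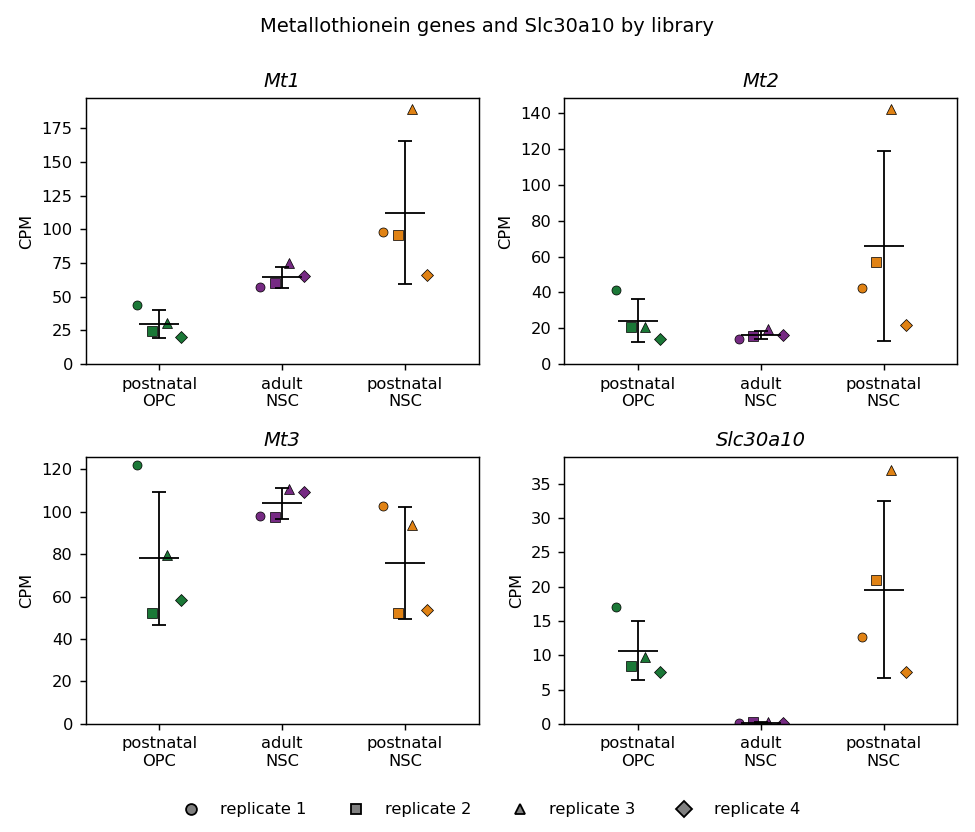
CPM of Mt1, Mt2, Mt3 and Slc30a10 in each library of postnatal OPC, adult NSC and postnatal NSC. Points are libraries, dashes are means and whiskers are SDs (n = 4 each); Mt1 is lowest in postnatal OPC, and Slc30a10 lies at 0.109 to 0.26 CPM in all adult NSC libraries.

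Of the 7 tested zinc exporter genes, 2 were higher and 5 not called in postnatal OPC relative to postnatal NSC, and 3 were higher and 1 lower in adult NSC than in postnatal NSC. Relative to adult NSC, 1 was higher and 3 were lower in postnatal OPC. Of all 16135 tested genes, 22.4% were higher and 22.7% lower in postnatal OPC against postnatal NSC. The shares were 25.2% and 27.9% in adult NSC against postnatal NSC, and 26.3% and 24.7% in postnatal OPC against adult NSC. The gene with the largest change of the whole set was Slc30a10 (ENSMUSG00000026614.7, chr1:185454848-185468762, plus strand), whose product exports manganese from the cell. It had 17, 8.36, 9.74 and 7.49 CPM in postnatal OPC, 0.109, 0.26, 0.225 and 0.123 CPM in adult NSC, and 12.6, 21, 37.0 and 7.5 CPM in postnatal NSC. Adult NSC cultures were near the detection limit, with 13 reads in 4 libraries, while both postnatal groups were well above it and overlapped each other. Slc30a10 was 105-fold lower in adult NSC than in postnatal NSC (−6.71 ± 0.63, adjusted p = 1.16e-05). It was 57.3-fold higher in postnatal OPC than in adult NSC (5.84 ± 0.63, adjusted p = 1.31e-05). Across all settings these log2 fold changes stayed within −7.02 to −6.20 and 5.53 to 6.08. Between postnatal OPC and postnatal NSC it was not called (−0.87 ± 0.41, adjusted p = 0.103), but it passed without postnatal OPC library 1 (−1.22, adjusted p = 0.0428) and without postnatal NSC library 4 (−1.18, adjusted p = 0.0177), in a range of 0.0177 to 0.546. Gm2061, an opposite-strand gene overlapping its exons, had 1.15 to 2.71 CPM in postnatal OPC, 0 in all adult NSC libraries and 0.373 to 3.13 CPM in postnatal NSC, so both genes were lowest in the same libraries.

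Slc30a1, the zinc exporter of the cell surface and the other standard MTF1 target, had 36.8, 28.0, 39.0 and 36.9 CPM in postnatal OPC, 35.7, 34.1, 34.4 and 34.6 CPM in adult NSC, and 37.8, 30.5, 44.7 and 27.2 CPM in postnatal NSC. Its means lay within 1 CPM of each other, and the adult range fell inside both others. Within postnatal NSC, Slc30a1 was highest in library 3 and lowest in library 4, as were Mt1 and Mt2. The log2 fold change was 0.01 ± 0.15 in postnatal OPC and −0.01 ± 0.15 in adult NSC relative to postnatal NSC (adjusted p = 0.973 and 0.949), while Mt1 and Mt2, with the same kind of promoter match, had the values given above.

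Slc30a4 (ENSMUSG00000005802.12, chr2:122681233-122702663, minus strand) encodes a vesicular zinc transporter known in mice for loading zinc into milk. It had 62.5, 60.4, 65.0 and 65.4 CPM in postnatal OPC, 98.8, 99.5, 83.5 and 85.2 CPM in adult NSC, and 40.9, 35.0, 32.5 and 39.1 CPM in postnatal NSC. The 3 groups did not overlap at all, with adult NSC highest and postnatal NSC lowest. It was 2.49-fold higher in adult NSC (1.32 ± 0.09, adjusted p = 1.25e-06) and less so in postnatal OPC (0.78 ± 0.09, adjusted p = 4.71e-05), each relative to postnatal NSC. Postnatal OPC was lower than adult NSC (−0.54 ± 0.09, adjusted p = 0.000446).

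The transporters of the early secretory pathway, Slc30a5, Slc30a6 and Slc30a7, supply zinc to enzymes made in the endoplasmic reticulum and Golgi. Slc30a5 averaged 65.8 ± 6.98 CPM in postnatal OPC, 97.7 ± 2.24 in adult NSC and 60.2 ± 12.4 in postnatal NSC, and Slc30a6, its partner in a heteromer, 11.8 ± 1.02, 16.5 ± 0.476 and 12.0 ± 2.14 CPM. Both were higher in adult NSC than in postnatal NSC (0.70 ± 0.13, adjusted p = 0.00111, and 0.47 ± 0.13, adjusted p = 0.00945) and lower in postnatal OPC than in adult NSC (adjusted p = 0.00359 and 0.00767). Slc30a7 was called higher in postnatal OPC than in postnatal NSC (0.29 ± 0.10, adjusted p = 0.0271), a call lost without postnatal OPC library 2 or 4 or postnatal NSC library 1 or 2 (adjusted p of 0.0653 to 0.119). It was also lost with no filter (0.098) and with only the 2 groups compared (0.0806). Leaving out postnatal NSC library 3 together with postnatal OPC library 2 gave 0.0702. Slc30a9, a transporter of the mitochondrial membrane, averaged 94.8 ± 1.79, 93.3 ± 1.71 and 91.9 ± 7.02 CPM and was called in no comparison. The untested Slc30a2, Slc30a3 and Slc30a8 are best known from secretory epithelium, synaptic vesicles and the insulin granule. Their reads summed over the 4 libraries of a group were 0, 1 and 10 for Slc30a2, 4, 0 and 13 for Slc30a3, and 0, 1 and 4 for Slc30a8 in postnatal OPC, adult NSC and postnatal NSC.

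The zinc importer family was called in both directions, as were all tested genes. Of 12 tested members, 3 were higher and 5 lower in postnatal OPC than in postnatal NSC, 3 higher and 3 lower in adult NSC than in postnatal NSC, and 2 higher and 3 lower in postnatal OPC than in adult NSC. In the same order, the shares of all 16135 tested genes were 22.4% higher and 22.7% lower, 25.2% and 27.9%, and 26.3% and 24.7%. Slc39a6 and Slc39a10, close relatives whose products pair in a heteromer, were higher in both comparisons with postnatal NSC. Slc39a10 averaged 143 ± 11.2 CPM in postnatal OPC, 169 ± 9.07 in adult NSC and 96.2 ± 24.3 in postnatal NSC, with log2 fold changes of 0.57 ± 0.14 (adjusted p = 0.00645) and 0.81 ± 0.14 (0.000717). Slc39a6 averaged 106 ± 12.6, 125 ± 2.23 and 80.2 ± 12.7 CPM, with 0.40 ± 0.12 (adjusted p = 0.0138) and 0.64 ± 0.12 (0.000767). Without postnatal NSC library 2 the OPC call of Slc39a6 was lost (0.33, adjusted p = 0.0596), as it was with only the 2 groups compared (0.40, 0.0552). Slc39a1 was lower in both, at 98.2 ± 7.61 CPM in postnatal OPC, 126 ± 4.85 in adult NSC and 148 ± 16.7 in postnatal NSC (−0.59 ± 0.09, adjusted p = 0.000248, and −0.23 ± 0.09, adjusted p = 0.046). The adult call of Slc39a1 was lost when any adult NSC library, postnatal OPC library 4 or postnatal NSC library 2 or 3 was left out (adjusted p of 0.0611 to 0.126), and 21.77% of its 50-base stretches also occur in a processed pseudogene. That call was also lost with no filter (0.0609) and with the replicate number as a block (0.0773).

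Slc39a14 and Slc39a8 take up manganese and zinc, and the product of Slc39a14 also takes up iron not bound to transferrin. Slc39a14 had 24.1, 20.9, 25.0 and 20.8 CPM in postnatal OPC, 45.2, 43.8, 46.0 and 46.2 CPM in adult NSC, and 34.5, 34.5, 34.2 and 37.3 CPM in postnatal NSC. The groups were tight and fully separate, with postnatal OPC lowest and adult NSC highest. Its log2 fold change was −0.63 ± 0.08 in postnatal OPC (adjusted p = 9.5e-05) and 0.37 ± 0.08 in adult NSC (0.0028), both relative to postnatal NSC, and −1.0 ± 0.08 in postnatal OPC relative to adult NSC (adjusted p = 1.7e-06). Slc39a8 was a low-level gene, at 1.04 ± 0.405 CPM in postnatal OPC, 3.11 ± 0.715 in adult NSC and 3.12 ± 0.771 in postnatal NSC. It was lower in postnatal OPC than in either NSC group (−1.60 ± 0.30, adjusted p = 0.0011, and −1.59 ± 0.31, adjusted p = 0.000981).

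Slc39a12, which is largely restricted to brain, went the other way between the groups. It averaged 4.60 ± 1.48 CPM in postnatal OPC, 1.67 ± 0.49 in adult NSC and 3.49 ± 0.97 in postnatal NSC, lower in adult NSC than in postnatal NSC (−1.06 ± 0.31, adjusted p = 0.0124) and higher in postnatal OPC than in adult NSC (1.46 ± 0.31, adjusted p = 0.00208). The surface importer gene Slc39a3 showed the same order of calls, at 53.5 ± 14.5, 35.3 ± 2.00 and 52.0 ± 4.16 CPM (−0.56 ± 0.15, adjusted p = 0.00887, for adult NSC against postnatal NSC). Slc39a9 was called higher, and Slc39a11 and Slc39a13 lower, in postnatal OPC than in postnatal NSC, each by less than 0.5 on the log2 scale. Slc39a9 was lost without postnatal OPC library 2 or postnatal NSC library 1, 2 or 4 (adjusted p of 0.0504 to 0.102). It was also lost with no filter (0.175) and with only the 2 groups compared (0.0695). Slc39a13 was lost without postnatal OPC library 3 or 4 or postnatal NSC library 2 (0.0716 to 0.0938), and Slc39a11 with any library left out but postnatal NSC 2 and 3 (0.0505 to 0.0898). With only the 2 groups compared, Slc39a13 (0.0794) and Slc39a11 (0.108) were both lost. Slc39a11 was also lost with no filter (0.0682), with the replicate number as a block (0.0704) and after thinning (0.0897). Exons of Slc39a9 and Slc39a13 overlap genes on the opposite strand. Slc39a2 and Slc39a7 were called in no comparison, and 74.49% of the 50-base stretches of Slc39a7 are shared with a readthrough gene. The untested Slc39a4, whose product takes up dietary zinc in the gut, had 5, 1 and 37 reads in postnatal OPC, adult NSC and postnatal NSC, and Slc39a5 had 1, 1 and 11.

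Among the genes that bring iron into cells, the transferrin gene and the transferrin receptor gene were both higher in adult NSC than in postnatal NSC. Trf (ENSMUSG00000032554.15, chr9:103204001-103230444, minus strand) had 0.678, 0.0408, 1.44 and 0.576 CPM in postnatal OPC, 24.6, 26.9, 50.1 and 27.1 CPM in adult NSC, and 5.51, 2.09, 1.05 and 4.90 CPM in postnatal NSC. Every adult NSC library was above every other library, and postnatal OPC and postnatal NSC overlapped. Trf was 9.52-fold higher in adult NSC than in postnatal NSC (3.25 ± 0.57, adjusted p = 0.000634). It was 49.2-fold lower in postnatal OPC than in adult NSC (−5.62 ± 0.69, adjusted p = 3.44e-05) and lower in postnatal OPC than in postnatal NSC (−2.37 ± 0.66, adjusted p = 0.0112). Without postnatal OPC library 3 the last of these values was −3.00 and the one relative to adult NSC −6.26. Over all settings these ran over −3.00 to −1.96 and −6.26 to −5.18. A same-strand readthrough gene, Gm20425, shares 59.37% of the 50-base stretches of Trf, so the authors' counting may have assigned part of its reads elsewhere.

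Trf is known as a gene of oligodendrocytes and choroid plexus, so the markers of both were summed. Of 10 mature oligodendrocyte markers 7 passed the filter, and the sum of all 10 was 259 to 532 CPM in postnatal OPC, 146 to 185 CPM in adult NSC and 331 to 904 CPM in postnatal NSC, and thus lowest in the group with the highest Trf, in which Ermn was at 0 in all libraries. Of 6 choroid plexus markers 1 passed the filter, and the sum was 3.57 to 6.78 CPM in postnatal OPC, 1.45 to 3.60 CPM in adult NSC, with Ttr and Folr1 at 0, and 6.65 to 11.7 CPM in postnatal NSC. The lowest values of both sums were in adult NSC libraries, with the choroid plexus sums of postnatal OPC and adult NSC just overlapping. Cnp made up most of the oligodendrocyte sum, at a mean of 150.2 CPM in adult NSC. Mobp and Opalin went the other way, with their highest means in adult NSC, at 5.43 and 1.55 CPM. Otx2, at a mean of 2.09 CPM in adult NSC, made up most of the choroid plexus sum. Of 6 endothelial cell markers 2 were tested. The sum of all 6 was 2.19 to 3.55 CPM in postnatal OPC, 14.7 to 15.8 CPM in adult NSC and 4.63 to 15.9 CPM in postnatal NSC. Most of the adult NSC sum came from Flt1, at a mean of 12.1 CPM, and Kdr, at 2.45 CPM. Pecam1, Cldn5, Tek and Cdh5 averaged 0.0702, 0.0927, 0.375 and 0.0141 CPM there, so the sum says little about endothelial cells. The part of these markers in the result was not tested.

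Tfrc (ENSMUSG00000022797.16, chr16:32608920-32632794, plus strand), the receptor that takes up iron-loaded transferrin, had 154, 67.1, 174 and 192 CPM in postnatal OPC, 242, 232, 233 and 225 CPM in adult NSC, and 124, 90.4, 78.3 and 145 CPM in postnatal NSC. Adult NSC stood above all other libraries with little spread, and postnatal OPC overlapped postnatal NSC through its library 2. Tfrc was 2.13-fold higher in adult NSC than in postnatal NSC (1.09 ± 0.27, adjusted p = 0.00551), in every setting. In postnatal OPC it was 0.42 ± 0.27 relative to postnatal NSC (adjusted p = 0.22), and without postnatal OPC library 2 it passed (0.64, adjusted p = 0.0103), with a range of 0.00871 to 0.479 over all settings. Relative to adult NSC it was −0.67 ± 0.27 (adjusted p = 0.0571), which passed without postnatal OPC library 4 (−0.82, 0.0351) and without postnatal NSC library 3 (−0.67, 0.0456), in a range of 0.0198 to 0.103. The lowest Tfrc of each postnatal group was in the library with the lowest G1/S sum, 67.1 CPM in postnatal OPC library 2 and 78.3 CPM in postnatal NSC library 3, and the part of the G1/S difference was not tested. Slc11a2, which moves iron out of the endosome, averaged 39.0 ± 1.55 CPM in postnatal OPC, 43.4 ± 2.03 in adult NSC and 42.3 ± 3.13 in postnatal NSC and was called in no comparison.

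**Figure D4:**
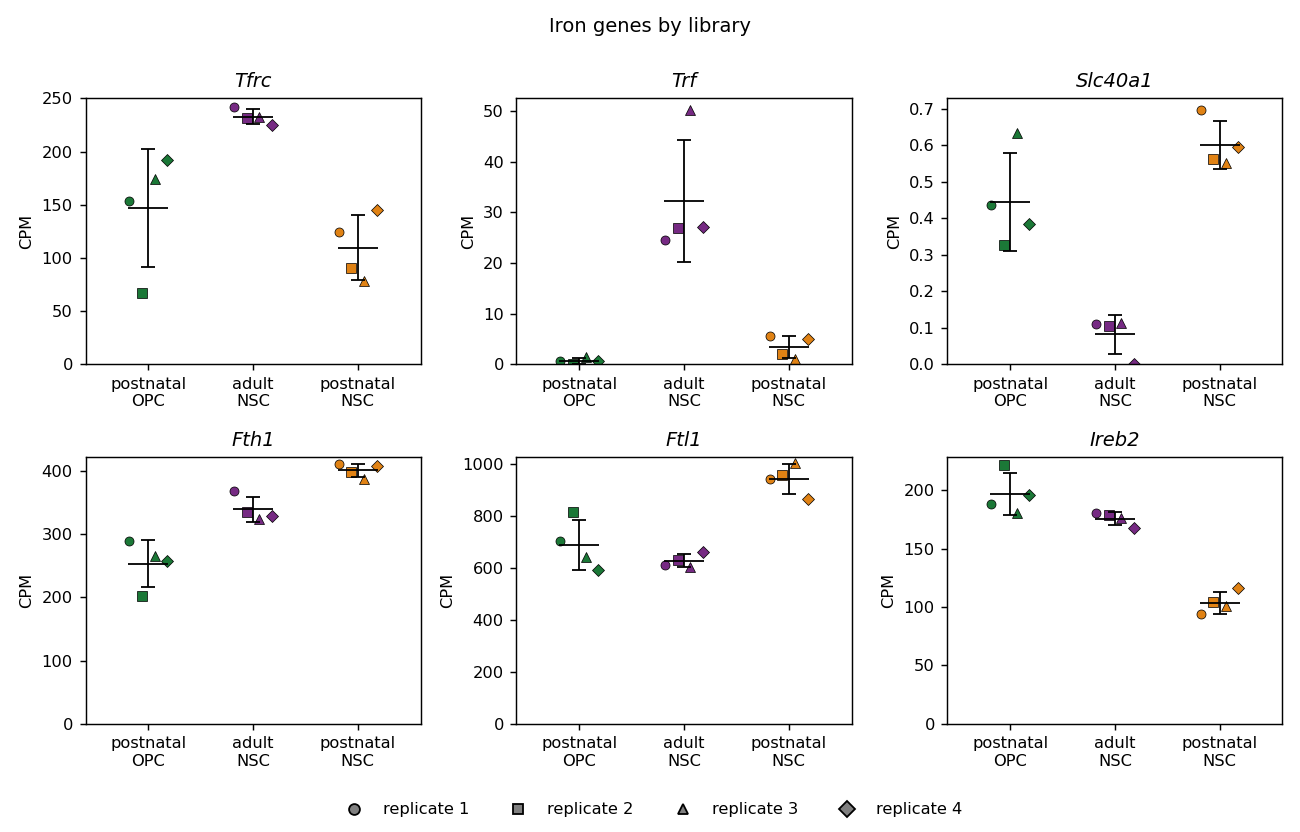
CPM of Tfrc, Trf, Slc40a1, Fth1, Ftl1 and Ireb2 in each library of postnatal OPC, adult NSC and postnatal NSC. Points are libraries, dashes are means and whiskers are SDs (n = 4 each); Trf and Tfrc are highest in adult NSC, and Ireb2 is above postnatal NSC in every library of the other groups.

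The ferritin genes were lower in postnatal OPC than in postnatal NSC, the group in which both were highest. Fth1 (ENSMUSG00000024661.7, chr19:9980598-9985098, plus strand), whose heavy chain oxidises iron for storage, had 289, 202, 265 and 258 CPM in postnatal OPC, 368, 335, 324 and 329 CPM in adult NSC, and 410.2, 399, 387 and 407 CPM in postnatal NSC. The 3 groups did not overlap, with postnatal OPC lowest. It was lower in postnatal OPC than in postnatal NSC (−0.66 ± 0.10, adjusted p = 0.000256) and than in adult NSC (−0.42 ± 0.10, adjusted p = 0.00396). Adult NSC relative to postnatal NSC gave −0.24 ± 0.10 (adjusted p = 0.0579). That value passed without postnatal OPC library 1 (−0.28, adjusted p = 0.0286) or 2 (−0.28, 0.00444), libraries that enter only through the shared estimate of spread and the scaling. It also passed with only the 2 groups compared (−0.25, 0.0134) and without postnatal NSC library 3 and postnatal OPC library 2 (−0.27, 0.00474). Its adjusted p ran over 0.00444 to 0.141.

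Ftl1 (ENSMUSG00000050708.16, chr7:45457944-45459884, minus strand), the ferritin light chain, had 704, 818, 643 and 593 CPM in postnatal OPC, 614, 633, 605 and 664 CPM in adult NSC, and 945, 960, 1007 and 865 CPM in postnatal NSC. Postnatal NSC lay above every library of the other groups, which overlapped each other. It was lower in postnatal OPC (−0.45 ± 0.10, adjusted p = 0.00276) and in adult NSC (−0.59 ± 0.10, adjusted p = 0.000504) than in postnatal NSC. Postnatal OPC relative to adult NSC gave 0.13 ± 0.10 (adjusted p = 0.28). Of the 50-base stretches of Ftl1, 50.88% also occur in ferritin light chain pseudogenes, 1 of which was itself listed at 105 to 154 CPM in postnatal OPC, 83.5 to 99.2 CPM in adult NSC and 127 to 189 CPM in postnatal NSC, so the level of Ftl1 is uncertain.

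The ferroportin gene Slc40a1 (ENSMUSG00000025993.10, chr1:45908068-45926523, minus strand) had 0.436, 0.326, 0.634 and 0.384 CPM in postnatal OPC, 0.109, 0.104, 0.113 and 0 CPM in adult NSC, and 0.695, 0.561, 0.551 and 0.596 CPM in postnatal NSC. These values rest on 36, 6 and 106 reads in postnatal OPC, adult NSC and postnatal NSC, so every group was close to the floor of detection. It was lower in adult NSC than in postnatal NSC (−2.78 ± 0.46, adjusted p = 0.00042) and higher in postnatal OPC than in adult NSC (2.34 ± 0.49, adjusted p = 0.0017). The postnatal OPC value relative to postnatal NSC was −0.45 ± 0.34 (adjusted p = 0.309). Slc40a1 passed the filter on low counts only through the postnatal NSC libraries, where it was highest. Its calls are therefore descriptions of these few reads. Over all settings that tested it, no filter among them, the adjusted p of the 2 calls was at most 0.00205 and 0.00569. Macrophages and microglia express much ferroportin. Of 8 microglia markers 1 was tested, and the sum of all 8 was 1.14 to 2.02 CPM in postnatal OPC, 0.52 to 0.802 CPM in adult NSC and 0.175 to 0.546 CPM in postnatal NSC. P2ry12, at means of 1.56 and 0.496 CPM, made up most of the sums of postnatal OPC and adult NSC. Cx3cr1 was at 0 in all groups, and Aif1 and C1qa were at 0 in postnatal OPC and adult NSC. The sum thus says little about microglia, and the part of these markers in the result was not tested.

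Ireb2, which encodes iron regulatory protein 2, the sensor that is degraded when iron is plentiful, was the iron gene with the clearest common difference from postnatal NSC. It (ENSMUSG00000032293.8, chr9:54863789-54912530, plus strand) had 188, 222, 180.5 and 196 CPM in postnatal OPC, 180.4, 179, 176 and 168 CPM in adult NSC, and 93.9, 104, 101 and 116 CPM in postnatal NSC. No postnatal NSC library reached the lowest library of the other groups. The log2 fold change was 0.92 ± 0.09 in postnatal OPC (adjusted p = 9.37e-06) and 0.76 ± 0.09 in adult NSC (3.79e-05), both relative to postnatal NSC, and 0.16 ± 0.08 in postnatal OPC relative to adult NSC (0.132). Aco1, which encodes the iron–sulfur enzyme that turns into iron regulatory protein 1, averaged 147 ± 9.47 CPM in postnatal OPC, 169.6 ± 7.26 in adult NSC and 149 ± 2.12 in postnatal NSC. It was called higher in adult NSC than in postnatal NSC (0.18 ± 0.07, adjusted p = 0.0348) and lower in postnatal OPC than in adult NSC (−0.21 ± 0.07, adjusted p = 0.0187). The first of these calls was lost with any 1 of 9 libraries left out (adjusted p of 0.0513 to 0.149), and the second without adult NSC library 3 (−0.18, 0.0592) or postnatal OPC library 2 (−0.16, 0.0505). With no filter neither call held (0.212 and 0.0774), and with the replicate number as a block the first was lost (0.0619).

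Other genes of metal handling were counted from lists of known genes, and their counts stand beside the shares of all 16135 tested genes: 22.4% higher and 22.7% lower in postnatal OPC against postnatal NSC, 25.2% and 27.9% in adult NSC against postnatal NSC, and 26.3% and 24.7% in postnatal OPC against adult NSC. None of these counts was tested against those shares. In a list of 22 further cellular iron genes, 12 were tested; 2 were higher and 3 lower in postnatal OPC than in postnatal NSC, 4 higher and 1 lower in adult NSC than in postnatal NSC, and 1 higher and 6 lower in postnatal OPC than in adult NSC. Cybrd1, a ferric reductase that prepares iron for uptake, averaged 114 ± 59.5 CPM in postnatal OPC, 666 ± 14.5 in adult NSC and 203 ± 68.8 in postnatal NSC. It was higher in adult NSC than in postnatal NSC (1.71 ± 0.39, adjusted p = 0.00339), lower in postnatal OPC than in adult NSC (−2.55 ± 0.41, 0.000265) and not called between the postnatal groups. The ferroxidase genes went apart in adult NSC relative to postnatal NSC, Cp up (1.07 ± 0.38, adjusted p = 0.033) and Heph down (−1.66 ± 0.38, 0.00319). Ncoa4, the receptor that takes ferritin to the lysosome, averaged 198 ± 24.2 CPM in postnatal OPC and 143 ± 4.57 in postnatal NSC (0.47 ± 0.09, adjusted p = 0.00124). Fbxl5, which targets iron regulatory protein 2 for degradation, was also higher there (0.37 ± 0.09, 0.00723).

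Of 26 genes for mitochondrial iron and iron–sulfur clusters, 25 were tested, and 2 were higher and 12 lower in postnatal OPC than in postnatal NSC (median log2 fold change −0.33), beside 22.4% and 22.7% of all genes. In adult NSC 5 were higher and 8 lower than in postnatal NSC (median −0.02), beside 25.2% and 27.9% of all genes. Fdxr, the ferredoxin reductase, was lower in postnatal OPC (−0.67 ± 0.11, adjusted p = 0.000349). Postnatal OPC against adult NSC, 1 was higher and 7 were lower, among them the mitochondrial chaperone gene Hspa9 (−1.0 ± 0.19, adjusted p = 0.000897).

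Of 17 heme genes 16 were tested, with 2 higher and 10 lower in postnatal OPC relative to postnatal NSC (median −0.40), beside 22.4% and 22.7% of all genes. In adult NSC 2 were higher and 7 lower relative to postnatal NSC (median −0.23), beside 25.2% and 27.9% of all genes, and 3 went each way in postnatal OPC relative to adult NSC. Slc46a1, a folate transporter that also carries heme, averaged 10.4 ± 0.956 CPM in postnatal OPC against 21.1 ± 2.12 in postnatal NSC (−1.02 ± 0.11, adjusted p = 2.82e-05). In adult NSC the heme synthesis genes Ppox (−1.11 ± 0.21, adjusted p = 0.00111) and Alad (−0.94 ± 0.20, 0.00189) were lower than in postnatal NSC, and Cpox was higher (0.72 ± 0.13, 0.000818).

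The remaining lists were shorter. Of 6 other zinc genes 4 were tested; 1 was higher in postnatal OPC, and 2 were higher and 1 lower in adult NSC, relative to postnatal NSC, with Cbwd1, a relative of zinc chaperones, at 0.82 ± 0.12 in adult NSC (adjusted p = 0.000177). All 12 copper genes were tested, with 2 lower and 10 not called in postnatal OPC and 3 higher and 3 lower in adult NSC, relative to postnatal NSC; the copper chaperone gene Atox1 was lower in postnatal OPC (−0.57 ± 0.11, adjusted p = 0.00171). Of 12 targets of NRF2, the oxidative stress factor that also regulates ferritin, 11 were tested. In postnatal OPC 5 were lower and 6 not called, and in adult NSC 3 were higher and 2 lower, each relative to postnatal NSC. The cystine transporter gene Slc7a11 was lower in both (−2.06 ± 0.14, adjusted p = 1.6e-06, and −1.11 ± 0.14, 7.83e-05), and the peroxiredoxin gene Prdx1 was higher in adult NSC (0.93 ± 0.21, 0.00266). Postnatal OPC against adult NSC, 1 NRF2 target was higher and 7 were lower, beside 26.3% and 24.7% of all genes. In that comparison 0 copper genes were higher and 4 lower, and 1 of the other zinc genes went each way.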

How the data were processed

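The authors deposited 1 table of raw gene counts for all 12 libraries, made from stranded poly(A) libraries. Per the submitters' processing notes, FastQC, STAR, featureCounts 1.22.2 and GRCm38 were used. The annotation release, strand setting and treatment of reads with several matches are not given in the sources used here. Identifiers were matched to GENCODE M21 (54349 of 55401 with the same version, 260 not found).

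Counts were fitted with edgeR 4.0.16 in R 4.3.3 (TMM scaling, filterByExpr with a minimum count of 10 and a minimum total of 15, quasi-likelihood test over all 12 libraries). P-values are two-sided and Benjamini-Hochberg adjusted over 16135 genes, and a gene was called at an adjusted p under 0.05. SE is the log2 fold change divided by the square root of F. The model code was tested on simulated data. No library pair of a group agreed within sampling noise.

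The members and all lists were chosen with earlier results of these data known. Values in every library are given for Mt1, Mt2, Mt3, Slc30a1, Tfrc, Trf, Slc40a1, Fth1 and Ftl1, and for at most 6 called changes per comparison, the largest of at least 1 on the log2 scale whose groups did not overlap and whose higher group reached 5 CPM. Slc39a14, Ireb2 and the list genes with a single value fall outside that rule or under its list part, and the first 2 were chosen after their values were seen. Alternatives were RLE scaling, DESeq2 1.42.0, no filter, only the groups compared, the replicate number as a block, thinning to the smallest library, and leaving out libraries.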

Additional observations from a re-analysis of the deposited data

Results flagged for a closer look

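In 93 groups of 4 library values, the gap of an extreme library to its nearest neighbour was set against the group's range, and 7 groups passed the 95% critical value of Dixon's test; chance alone passes about 1 in 20 groups. The widest gap in expression terms was that of Trf in adult NSC library 3, at 50.1 CPM while the others had 24.6 to 27.1 CPM. Slc40a1 was at 0 CPM in adult NSC library 4, while the others had 0.104 to 0.113 CPM. Aco1 was at 133 CPM in postnatal OPC library 2 (others 149.6 to 153 CPM) and at 181 CPM in adult NSC library 3 (others 166 CPM). Slc39a11 was at 14.1 CPM in postnatal OPC library 2 (others 16.9 to 17.1 CPM). Slc39a9 was at 87.1 CPM in postnatal OPC library 1 (others 92.8 to 93.3 CPM). Slc39a14 was at 37.3 CPM in postnatal NSC library 4 (others 34.2 to 34.5 CPM). None of the 7 was in postnatal NSC library 3.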

How the results depend on the processing

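The 16, 18 and 14 members called in postnatal OPC against postnatal NSC, adult NSC against postnatal NSC and postnatal OPC against adult NSC became 16, 18 and 14 with RLE scaling, 16, 19 and 15 with DESeq2, 13, 18 and 13 without a filter, 15, 18 and 13 after thinning, and 16, 20 and 16 without postnatal NSC library 3 and postnatal OPC library 2. Fitting only the 2 groups compared gave 10, 20 and 16 members, while the share of all genes called became 34.4%, 53.3% and 58.3%, beside 45.1%, 53.1% and 51.0% with all libraries. Leaving out 1 library at a time gave 12 to 17, 15 to 21 and 13 to 18. The shares of all genes then ran over 38.8% to 48.6%, 45.0% to 57.6% and 43.7% to 55.2%. Replicate numbers did not pair the libraries (correlations of same-numbered deviations of −0.363 to 0.325), and the fit with the replicate number as a block called 15, 17 and 15, with Tfrc passing in postnatal OPC against adult NSC (−0.75, adjusted p = 0.0308) and Mt3 in adult NSC against postnatal NSC (0.55, 0.0419). The block fit called 42.2%, 49.8% and 48.5% of all genes. Signs turned only in values near 0. Slc30a1 was −0.03 in postnatal OPC against postnatal NSC without a filter, and 0.01 with the block and 0.12 without the pair of libraries in adult NSC against postnatal NSC. Over single libraries left out, Slc30a1 ran over −0.13 to 0.14, −0.16 to 0.12 and −0.03 to 0.12 in the 3 comparisons, and Mt3 over −0.29 to 0.20 in the first. The causes were not tested. Depth limits Slc40a1, which fell below the filter after thinning.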
